A study of Mus musculus with 8 samples.

Results

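The small leucine-rich proteoglycans were followed in RNA sequencing libraries of cultured mouse colon fibroblasts with and without the transcription factor gene Zeb1. The family was taken as 10 genes chosen by name, Dcn, Bgn, Aspn, Lum, Fmod, Prelp, Kera, Omd, Ogn and Podn, out of 45321 genes with summed transcripts. Reads and TPM (a read density corrected for transcript length and scaled to the same total in each library) of the transcripts of each gene were added up with the GENCODE M21 annotation. The Fib-Ctrl group carried loxP-flanked Zeb1 on both alleles (genotype Zeb1 flox/flox), and the Fib-dZeb1 group carried the deleted alleles (Zeb1 del/del). Both groups are labelled as untreated. The age of the mice is not labelled. According to the study, fibroblasts grew out of fragments of mouse colon on coated plates, and Zeb1 was deleted in the culture dish by switching on Cre recombinase. Neither the promoter that drove Cre in these cultures nor the handling of the Fib-Ctrl cultures at that step is given, so genotype and Cre exposure cannot be told apart. Each genotype had 2 fibroblast lines, called line 1 and line 2 by their label numbers, and 2 replicate libraries were made from each line, 8 libraries in all. P-values over the 4 libraries of a genotype count replicates of a line as independent samples, although only 2 lines stood behind them.

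Small leucine-rich proteoglycans are secreted core proteins built from leucine-rich repeats, many of which carry chondroitin, dermatan or keratan sulfate chains. They coat collagen fibrils, set fibril diameter and spacing, and hold growth factors such as TGF-beta in the matrix, and connective tissue fibroblasts are their main source. By structure they are sorted into classes. Decorin (Dcn), biglycan (Bgn) and asporin (Aspn) form class I. Fibromodulin (Fmod), lumican (Lum), PRELP (Prelp), keratocan (Kera) and osteomodulin (Omd) form class II. Mimecan, also called osteoglycin (Ogn), belongs to class III, and podocan (Podn) to class V. ZEB1, the protein lost in Fib-dZeb1 cells, is a zinc-finger repressor that binds E-box DNA and is best known for silencing epithelial genes.

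Libraries held 18852422 to 25540529 reads each. Zeb1 itself stood at 94.7 ± 2.71 CPM (read counts scaled to a common library size with TMM, mean ± SD, n = 4) in Fib-Ctrl against 14.3 ± 2.96 CPM in Fib-dZeb1, with no overlap between the genotypes. The general fibroblast genes Col1a1 and Col1a2 were abundant in both genotypes, with means of 22760 and 14165 CPM in Fib-Ctrl, compared with 7275 and 4192 CPM in Fib-dZeb1. Of the 10 family genes 9 passed the filter on low counts, and Kera did not. In edgeR's quasi-likelihood test with Benjamini-Hochberg adjustment at 0.05, 3 of the 9 fell in Fib-dZeb1, namely Prelp, Fmod and Bgn. This test called 8.65% of 12963 genes lower and 7.54% higher. No member was called higher by edgeR, 0 rose at an unadjusted p under 0.05, and 0 rose in DESeq2, which called 4 lower. The median log2 fold change of the 9 was -0.59, against -0.005 over all tested genes, and 7 of the 9 estimates lay below zero. With library totals in place of TMM scaling the median of all genes moved to 0.17 and the calls over all genes from 1121 lower and 978 higher to 719 lower and 2272 higher, whereas each member kept its sign, as it did in limma on TPM, where the median moved to 0.16. In these bulk cultures fewer cells making a transcript and less transcript per cell cannot be told apart.

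**Figure D1:**
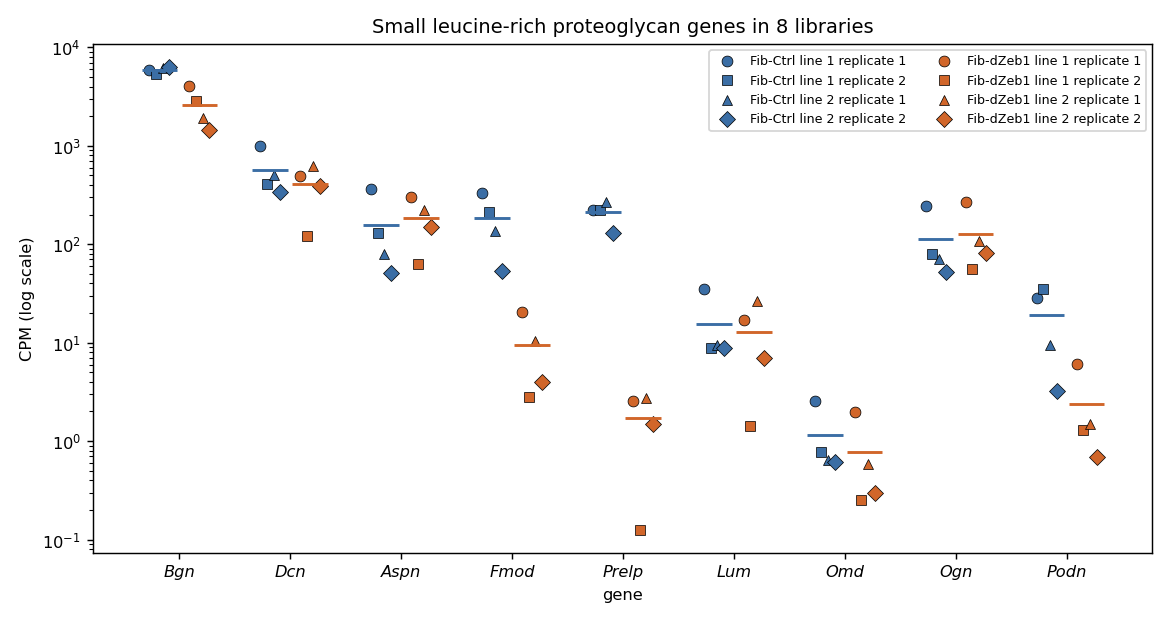
CPM of 9 small leucine-rich proteoglycan genes in each library (log axis), with 4 Fib-Ctrl libraries in blue, 4 Fib-dZeb1 libraries in orange and horizontal lines at the group means. The genotypes are separate for Bgn, Fmod and Prelp and overlap for the other 6 genes, and Kera is left out because 7 of 8 libraries had 0 reads.

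Prelp showed the largest change of the family. Its product is a basic, arginine- and proline-rich protein that binds collagen on one side and heparan sulfate on the other and anchors basement membranes to connective tissue. In Fib-Ctrl it stood at 223 and 224 CPM in replicates 1 and 2 of line 1 and at 270 and 129 CPM in those of line 2. In Fib-dZeb1 it stood at 2.58 and 0.13 CPM in line 1 and at 2.73 and 1.5 CPM in line 2. Every Fib-Ctrl library was far above every Fib-dZeb1 library, and replicate 2 of Fib-dZeb1 line 1 was the lowest. The mean fell from 211 ± 59 to 1.74 ± 1.2 CPM (SD, n = 4 each), a log2 fold change of -6.94 (SE 0.67, edgeR adjusted p = 0.00102), which is 123-fold. Counted from the largest fall, Prelp ranked 13 of the 12963 genes tested. The fall rested on 16345 reads over the Fib-Ctrl libraries and 158 over the Fib-dZeb1 libraries. Prelp passed the threshold in all of 21 alternative analyses, with lines in place of libraries as the samples among them (edgeR adjusted p = 0.0298).

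Fmod, whose product binds fibrillar collagen and guides its cross-linking and fibril growth, changed in the same direction. In Fib-Ctrl it stood at 334 and 212 CPM in line 1 and at 137 and 53.6 CPM in line 2. In Fib-dZeb1 it stood at 20.6 and 2.80 CPM in line 1 and at 10.3 and 3.96 CPM in line 2. The lowest Fib-Ctrl library was still above the highest Fib-dZeb1 library, although the Fib-Ctrl values themselves spanned 6.22-fold. The mean fell from 184 ± 119 to 9.4 ± 8.14 CPM (SD, n = 4 each), a log2 fold change of -4.30 (SE 0.78, edgeR adjusted p = 0.00964), which is 19.7-fold. Among the tested genes this was the fall of rank 57. The call was lost with lines as samples (edgeR adjusted p = 0.148), in limma-voom with a correlation within lines (0.0761) and without both libraries of Fib-dZeb1 line 2 (0.0816).

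Prelp (ENSMUSG00000041577.5) and Fmod (ENSMUSG00000041559.7) are neighbours on chromosome 1 of GRCm38, where Prelp spans 133910304 to 133921414 on the minus strand and Fmod spans 134037254 to 134048277 on the plus strand. Their start sites lie 115840 bases apart. Optc, the opticin gene of the same superfamily, starts 13415 bases from the Prelp start, on the side away from Fmod. It averaged 2.25 ± 0.115 CPM in Fib-Ctrl, compared with 1.65 ± 0.617 CPM in Fib-dZeb1 (log2 difference -0.45, SE 0.31, edgeR adjusted p = 0.349). Btg2, an antiproliferative gene 41866 bases past the Fmod start, had a log2 fold change of -0.18 (SE 0.34, edgeR adjusted p = 0.754). Adora1, an adenosine receptor gene 198177 bases past that start, rose by 4.56 on the log2 scale (SE 0.80, edgeR adjusted p = 0.00892). No other tested gene within 200 kb of either start fell in the test. Prelp and Fmod also fell to different extents, and the ratio of their TPM was 0.57 to 2.07 in Fib-Ctrl libraries and 0.0382 to 0.324 in Fib-dZeb1 libraries.

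ZEB1 is known to bind the sequence CACCT or its reverse complement AGGTG, above all within the E-box CAGGTG, so the promoters of the members were searched for these letters on both strands. RefSeq promoter windows of 250 bases before the start site (GRCm38.p6) were matched by symbol for 8 of the 10 members, with 9 windows because Podn had 2 starts. The windows of the 3 genes that fell are printed 5' to 3' on the strand of the gene, with every E-box of the form CANNTG, every CACCT or AGGTG and every TATAAA or TTTATA in capitals. They lie at chr1:133921402-133921651 on the minus strand (Prelp), at chr1:134037004-134037253 on the plus strand (Fmod) and at chrX:73483351-73483600 on the plus strand (Bgn).
Prelp: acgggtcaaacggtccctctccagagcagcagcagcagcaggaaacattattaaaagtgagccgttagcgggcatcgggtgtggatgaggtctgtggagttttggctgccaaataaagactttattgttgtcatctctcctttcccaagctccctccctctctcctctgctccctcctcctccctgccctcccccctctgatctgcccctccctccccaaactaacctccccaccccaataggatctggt
Fmod: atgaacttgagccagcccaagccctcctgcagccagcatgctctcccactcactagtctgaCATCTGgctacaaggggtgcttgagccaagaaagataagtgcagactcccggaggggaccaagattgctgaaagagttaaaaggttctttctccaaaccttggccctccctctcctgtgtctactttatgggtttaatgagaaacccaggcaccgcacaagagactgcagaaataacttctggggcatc
Bgn: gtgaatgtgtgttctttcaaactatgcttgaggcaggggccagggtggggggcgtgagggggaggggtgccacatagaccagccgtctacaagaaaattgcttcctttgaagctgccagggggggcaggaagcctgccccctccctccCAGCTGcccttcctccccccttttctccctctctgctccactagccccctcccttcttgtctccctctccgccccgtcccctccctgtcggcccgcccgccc
None of the windows of Prelp, Fmod and Bgn held CACCT or AGGTG, and the capitals mark 1 other E-box each in Fmod and Bgn. Over all members 3 of 9 windows held CACCT or AGGTG, compared with 46.0% of all 32851 mouse promoter windows of this length. These 3 belonged to Omd, Kera and the more downstream start of Podn. Omd did not pass the test, Kera was not tested, and Podn lay at the threshold (log2 fold change -3.01, edgeR adjusted p = 0.0501). The E-box CAGGTG or CACCTG was found in 1 of 9 windows, compared with 17.2% of all windows. A match of letters is a description and shows no binding, and no binding data were used here.

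Bgn was by far the most abundant member. Biglycan carries chondroitin or dermatan sulfate chains, binds collagen I and can act as a danger signal on Toll-like receptors when set free from the matrix. In Fib-Ctrl it stood at 5955 and 5334 CPM in line 1 and at 6137 and 6304 CPM in line 2. In Fib-dZeb1 it stood at 4082 and 2883 CPM in line 1 and at 1928 and 1451 CPM in line 2. The 4 Fib-Ctrl libraries were close together, and all Fib-dZeb1 libraries were below them, those of line 2 furthest. The mean fell from 5933 ± 424 to 2586 ± 1162 CPM (SD, n = 4 each), a log2 fold change of -1.20 (SE 0.29, edgeR adjusted p = 0.0272), which is 2.29-fold. The genotypes did not overlap for 24.3% of all genes tested, with Fib-dZeb1 below Fib-Ctrl for 12.3% and above it for 12%, and Bgn, Fmod and Prelp were the 3 members without overlap, all of them lower.

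The Fib-dZeb1 lines differed from each other in Bgn. In a fit with a separate mean for each line, line 2 minus line 1 was -1.04 within Fib-dZeb1 (SE 0.21, edgeR adjusted p = 0.0301), a contrast in which 6.87% of all genes passed. Within Fib-Ctrl it was 0.14 (SE 0.21, edgeR adjusted p = 0.684), where 17% passed. Between lines of the same number Bgn differed by genotype by -0.70 (SE 0.21, edgeR adjusted p = 0.0432) for line 1 and by -1.88 (SE 0.21, edgeR adjusted p = 0.00138) for line 2, and these contrasts differed by -1.18 (SE 0.29, edgeR adjusted p = 0.0354). The last passed in no other member, against 15.3% of all genes. Line numbers match lines of both genotypes by label alone, and each such contrast sets 1 line against 1 line, so its p measures only the spread between replicates of a line. Bgn (ENSMUSG00000031375.17) lies on the X chromosome, at 73483602 to 73495933 on the plus strand. The Fib-dZeb1 line 1 libraries held Xist at 113 CPM or more and 0 reads of the Y-linked Ddx3y. The other 6 libraries held Ddx3y at 32.9 to 111 CPM and 0 reads of Xist. These 6 were not alike in every Y-linked gene. Eif2s3y stood at 0.962 and 0.463 CPM and Kdm5d at 1.05 and 0.772 CPM in Fib-Ctrl line 1. In Fib-Ctrl line 2 Eif2s3y stood at 21.6 and 19.4 CPM and Kdm5d at 16.5 and 16.7 CPM. The sex of the Fib-dZeb1 line 1 culture and its line number cannot be told apart. Every genotype contrast between the lines numbered 1, for Bgn and the other members, therefore also sets libraries with Xist against libraries with Ddx3y. The Bgn call was kept in 11 of 21 alternative analyses. It was lost with lines as samples (edgeR adjusted p = 0.275), in limma-voom with a correlation within lines (0.0859), and without replicate 1 of Fib-Ctrl line 1 (0.0546), replicate 1 of Fib-Ctrl line 2 (0.0589), replicate 2 of Fib-Ctrl line 2 (0.0543), replicate 2 of Fib-dZeb1 line 1 (0.0578) or replicate 1 of Fib-dZeb1 line 2 (0.0685). It was also lost without both libraries of Fib-Ctrl line 1 (0.0615), of Fib-Ctrl line 2 (0.0846) or of Fib-dZeb1 line 2 (0.0626).

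**Figure D2:**
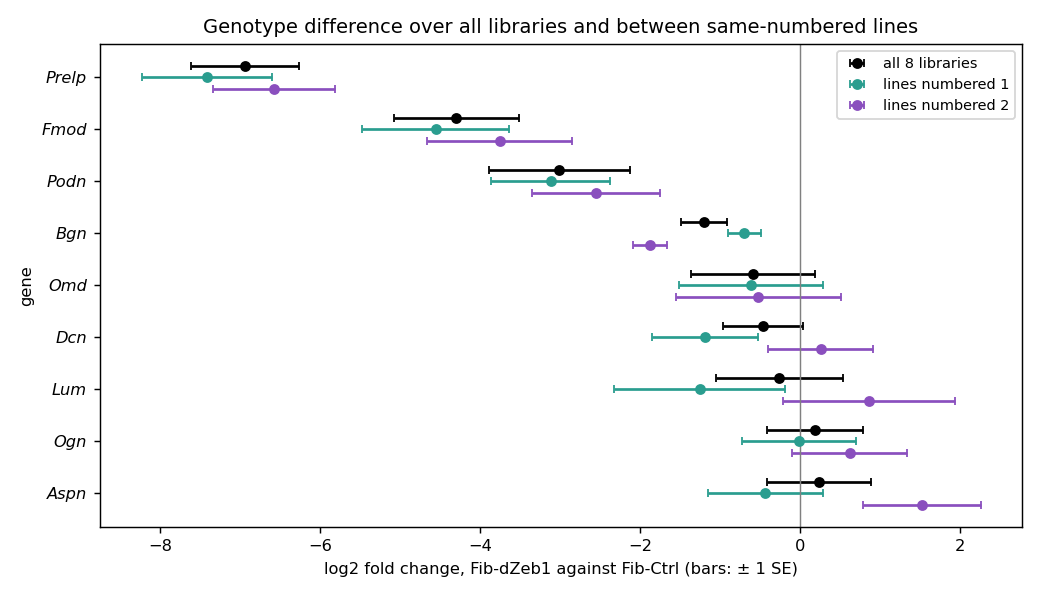
Log2 fold change of Fib-dZeb1 against Fib-Ctrl for 9 members over all 8 libraries (black), between the lines numbered 1 (green) and between those numbered 2 (purple), with bars of 1 SE on each side. Prelp, Fmod, Podn, Bgn and Omd lie left of zero in all 3 contrasts, with the bars of Omd crossing zero in each. Bgn is at -0.70 for line 1 and -1.88 for line 2.

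Podn lay at the threshold. Podocan is a matrix protein that binds collagen I and slows the growth of smooth muscle cells. In Fib-Ctrl it stood at 28.5 and 35.0 CPM in line 1 and at 9.55 and 3.25 CPM in line 2. In Fib-dZeb1 it stood at 6.06 and 1.30 CPM in line 1 and at 1.5 and 0.70 CPM in line 2. Within each line number both Fib-Ctrl libraries were above both Fib-dZeb1 libraries, but over all lines the genotypes overlapped, because replicate 2 of Fib-Ctrl line 2 was below replicate 1 of Fib-dZeb1 line 1. The mean was 19.1 ± 15.1 CPM in Fib-Ctrl, compared with 2.39 ± 2.47 CPM in Fib-dZeb1 (SD, n = 4 each), with a log2 fold change of -3.01 (SE 0.88, edgeR adjusted p = 0.0501). Podn passed in 8 of the 21 alternative analyses, with adjusted p from 0.00811 in DESeq2 upwards, but not with lines as samples (edgeR adjusted p = 0.306) or in limma-voom with a correlation within lines (0.262). Its log2 fold change was -4.03 without replicate 1 of Fib-dZeb1 line 1, -4.12 without both libraries of that line, -3.75 without both of Fib-Ctrl line 2, -1.43 without both of Fib-Ctrl line 1 and -2.38 without both of Fib-dZeb1 line 2. Between the lines numbered 1 it was -3.12 (SE 0.74, edgeR adjusted p = 0.0203) and between those numbered 2 it was -2.55 (SE 0.80, edgeR adjusted p = 0.0495), where 27.4% and 28.8% of all genes passed, with 1 line on each side. Podn (ENSMUSG00000028600.15, chromosome 4, 108014791 to 108096445, minus strand) overlaps Scp2 on the same strand, which held 15829 reads over all libraries against 1740 for Podn. How the reads of both genes were separated was not checked, and values of Podn are less certain for that reason.

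The promoter window at the downstream Podn start is shown because it was the 1 window of the family with the E-box CAGGTG. It lies at chr4:108030987-108031236 on the minus strand and is marked like the windows of Prelp, Fmod and Bgn.
Podn: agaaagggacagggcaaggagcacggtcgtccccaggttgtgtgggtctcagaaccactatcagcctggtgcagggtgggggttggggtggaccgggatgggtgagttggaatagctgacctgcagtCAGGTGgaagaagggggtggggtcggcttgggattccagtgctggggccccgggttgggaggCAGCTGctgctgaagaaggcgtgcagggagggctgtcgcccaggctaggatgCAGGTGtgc
CAGGTG occurs in it at 2 places, which begin 1 base before the AGGTG matches at -122 and -8 from the start site, and each match is counted both as an E-box of either form and as AGGTG. Which Podn transcripts begin at this start was not checked. Podn-203 made up 45.5% to 88.4% of Podn TPM in Fib-Ctrl libraries and 15.0% to 74.5% in Fib-dZeb1 libraries, and Podn-202 made up 0% to 44.1% and 25.5% to 59.5%. Podn-201 held 63.9 estimated reads in replicate 1 of Fib-dZeb1 line 1, 32.7 in replicate 2 of Fib-Ctrl line 2 and 0 in the other 6 libraries. With 210 reads for Podn over all Fib-dZeb1 libraries these shares are rough.

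Dcn, Lum and Kera form a cluster on chromosome 10. Decorin is the classic collagen-coating and TGF-beta-binding member, lumican spaces collagen fibrils in the cornea and other connective tissue, and keratocan is chiefly a corneal protein. Dcn (ENSMUSG00000019929.16, 97479609 to 97518143, plus strand) stood at 996, 407, 509 and 338 CPM in the Fib-Ctrl libraries, in the order line 1 replicates 1 and 2, then line 2 replicates 1 and 2. In the Fib-dZeb1 libraries it stood at 497, 120, 620 and 391 CPM in the same order. The genotypes overlapped, with the highest value in replicate 1 of Fib-Ctrl line 1 and the lowest in replicate 2 of Fib-dZeb1 line 1. The log2 fold change was -0.47 (SE 0.50, edgeR adjusted p = 0.554), and 2 SE on each side reached from -1.46 to 0.52. It was -0.05 without replicate 1 of Fib-Ctrl line 1 and -0.06 without both libraries of that line, and it was -1.19 (SE 0.66) between the lines numbered 1 and 0.25 (SE 0.65) between those numbered 2. A fall of Dcn as large as that of Fmod or Prelp lies outside the range of 2 SE. That SE counts replicates of a line as independent, so the range between lines may be wider.

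Lum (ENSMUSG00000036446.5, 97565128 to 97572703, plus strand) stood at 34.8, 8.80, 9.38 and 8.88 CPM in the Fib-Ctrl libraries in that order. In the Fib-dZeb1 libraries it stood at 16.9, 1.42, 26.3 and 6.97 CPM. Replicate 1 of Fib-Ctrl line 1 stood apart at the top, and the genotypes overlapped. The log2 fold change of Lum was -0.26 (SE 0.79, edgeR adjusted p = 0.851) and turned positive when replicate 1 of Fib-Ctrl line 1 was left out (0.51). Kera (ENSMUSG00000019932.8, 97606879 to 97613692, plus strand) had 4 reads in replicate 1 of Fib-Ctrl line 1 and 0 in the other 7 libraries. A count of 0 over the Fib-dZeb1 libraries allows a level of up to 0.0339 CPM by counting error alone, and no fold is given.

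Aspn, Omd and Ogn form another cluster, on chromosome 13. Asporin binds collagen and TGF-beta, osteomodulin is best known from bone, and mimecan takes part in collagen fibril assembly. Aspn (ENSMUSG00000021388.14, 49544443 to 49567565, plus strand) stood at 367, 130, 79.6 and 51.2 CPM in the Fib-Ctrl libraries and at 305, 63.0, 224 and 151 CPM in the Fib-dZeb1 libraries. In line 1 the genotypes overlapped, whereas in line 2 both Fib-dZeb1 libraries were above both Fib-Ctrl libraries. Over all libraries the log2 fold change of Aspn was 0.24 (SE 0.65, edgeR adjusted p = 0.833). Between the lines numbered 2 it was 1.52 (SE 0.74, edgeR adjusted p = 0.159), which did not pass.

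Ogn (ENSMUSG00000021390.6, 49608046 to 49624501, plus strand) stood at 247, 78.7, 70.5 and 52.7 CPM in the Fib-Ctrl libraries and at 268, 56.1, 107 and 81.6 CPM in the Fib-dZeb1 libraries. Replicate 1 of line 1 was the highest library in each genotype. In line 1 and over all libraries the genotypes overlapped, whereas in line 2 both Fib-dZeb1 libraries were above both Fib-Ctrl libraries. Between the lines numbered 2 Ogn differed by 0.62 (SE 0.72, edgeR adjusted p = 0.551), which did not pass. Over all libraries its values were as follows. The log2 fold change was 0.19 (SE 0.60, edgeR adjusted p = 0.858), and 2 SE on each side reached from -1.02 to 1.40. Omd (ENSMUSG00000048368.9, 49582462 to 49592822, plus strand) stood at 2.57, 0.77, 0.64 and 0.62 CPM in the Fib-Ctrl libraries and at 1.96, 0.25, 0.59 and 0.29 CPM in the Fib-dZeb1 libraries. It was low everywhere, again highest in replicate 1 of line 1 of each genotype, with a log2 fold change of -0.59 (SE 0.77, edgeR adjusted p = 0.632). Cenpp, a centromere protein gene, runs through all 3 genes on the opposite strand and held 1058 reads against 162 for Omd, so the Omd values are uncertain where the counting did not use strand. The signs of Aspn, Ogn and Omd each turned in at least 1 analysis that left out a library or a line.

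Aspn and Ogn kept their ratio while their levels moved. Their TPM ratio was 1.06 to 1.81 in Fib-Ctrl libraries and 1.23 to 2.28 in Fib-dZeb1 libraries, although Aspn CPM spanned 7.17-fold and Ogn CPM 4.69-fold over the Fib-Ctrl libraries. Their promoter windows are shown because both held the TATA-box letters TATAAA or TTTATA, which 12.4% of all promoter windows held and which none of the other member windows held. They lie at chr13:49544193-49544442 (Aspn) and chr13:49607765-49608014 (Ogn), both on the plus strand, with the same letters in capitals as before.
Aspn: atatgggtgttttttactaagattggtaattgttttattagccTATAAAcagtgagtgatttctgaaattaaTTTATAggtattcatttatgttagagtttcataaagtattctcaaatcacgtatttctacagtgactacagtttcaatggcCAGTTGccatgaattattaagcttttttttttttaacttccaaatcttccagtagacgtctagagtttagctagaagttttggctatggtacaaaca
Ogn: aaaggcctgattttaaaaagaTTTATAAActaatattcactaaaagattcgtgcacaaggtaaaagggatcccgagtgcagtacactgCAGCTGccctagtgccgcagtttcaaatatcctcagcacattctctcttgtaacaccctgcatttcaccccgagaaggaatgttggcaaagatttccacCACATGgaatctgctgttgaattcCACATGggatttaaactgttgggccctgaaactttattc
Aspn held TATAAA and TTTATA at separate places, and Ogn held both in 1 overlapping stretch. All of these lay near the far end of the window rather than next to the start site. The GC content of the Aspn window was 30.0% and of the Ogn window 42.0%, compared with 55.6% for Prelp, 51.2% for Fmod and 64.4% for Bgn.

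Levels of different genes were compared in TPM, which corrects for length. Bgn ranked first and Dcn ranked next among the 10 members in every library. Bgn mean TPM was 4684 ± 356 in Fib-Ctrl and 2289 ± 1025 in Fib-dZeb1, and Dcn mean TPM was 555 ± 310 and 449 ± 240 (SD, n = 4 each). Below these, the Fib-Ctrl means were 121 ± 114 TPM for Aspn, 103 ± 68.8 TPM for Fmod, 99.8 ± 28.4 TPM for Prelp and 79.0 ± 66.3 TPM for Ogn, which do not differ beyond their spread. The order of these 4 varied from library to library. Lum followed at 13.7 ± 11.8 TPM and Podn at 10.7 ± 8.48 TPM, which also overlapped, and then Omd at 1.42 ± 1.22 TPM. In Fib-dZeb1 Aspn at 159 ± 90.8 TPM and Ogn at 100 ± 76.3 TPM stood above Lum at 12.8 ± 11.0 TPM, as they did in Fib-Ctrl. The place of Fmod and Prelp changed. Fmod at 5.9 ± 5.17 TPM was 0.248 to 1.25 times Lum, where it had been 3.83 to 15.4 times Lum in Fib-Ctrl libraries. Prelp at 0.929 ± 0.651 TPM stood next to Omd at 1.07 ± 1.12 TPM at the bottom.

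The 10 members together made up 0.494% to 0.67% of all TPM in Fib-Ctrl libraries and 0.19% to 0.47% in Fib-dZeb1 libraries, so the summed level was lower in every Fib-dZeb1 library. Bgn alone was 72.8% to 90.7% of the family's TPM in Fib-Ctrl libraries against 63.8% to 91.7% in Fib-dZeb1 libraries, which overlap. Among all genes Bgn ranked 13 to 21 by TPM in Fib-Ctrl libraries against 18 to 126 in Fib-dZeb1 libraries. Prelp, Fmod and Podn together made up 1.69% to 4.84% of the family in Fib-Ctrl libraries against 0.0941% to 0.391% in Fib-dZeb1 libraries. The Dcn share was highest in the line 2 libraries of Fib-dZeb1, at 24.9% and 22.3%, where Bgn was lowest.

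**Figure D3:**
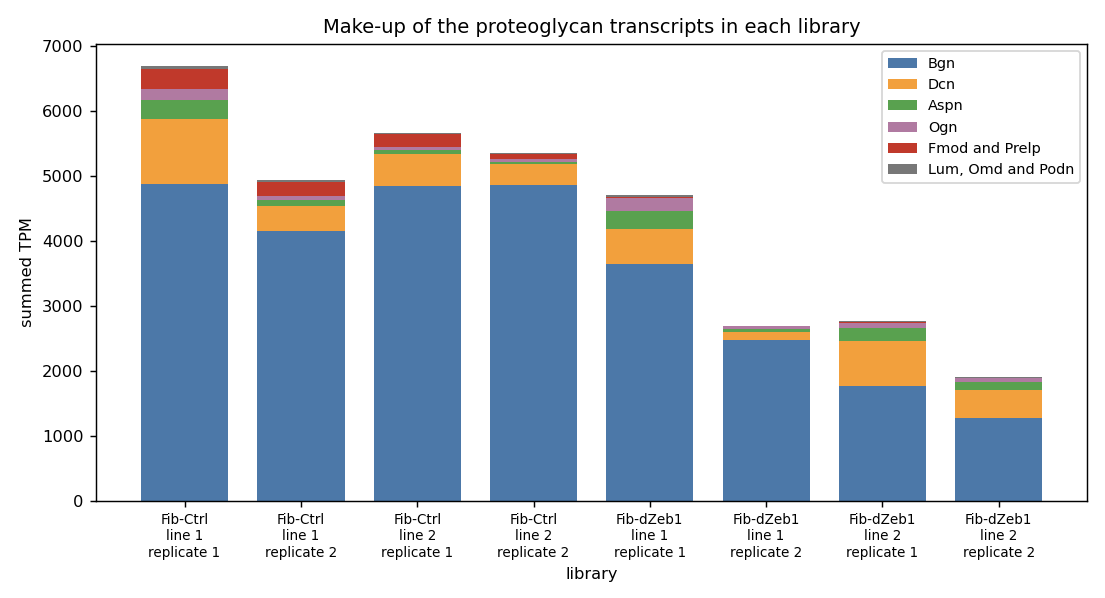
Summed TPM of the small leucine-rich proteoglycans in each of the 8 libraries, stacked by gene. Bgn is the largest block everywhere, the block of Fmod and Prelp can be seen in Fib-Ctrl libraries and hardly in Fib-dZeb1 libraries, and the total runs from 1904 to 6703 TPM.

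Apart from Podn, most reads of each member with reads in both genotypes fell on 1 transcript. Bgn-201, with 8 exons, made up 89.5% to 92.5% of Bgn TPM over all libraries, and the short processed transcript Bgn-208 made up 6.31% to 8.99%. Dcn-201 made up 85.5% to 96.7%, Aspn-201 at least 95.5%, Fmod-201 at least 99.5% and Prelp-201 at least 99.1%.

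Members were also compared between the replicate libraries. In replicate 2 libraries all 9 tested members had lower estimates than in replicate 1 libraries, by -0.26 for Bgn up to -1.82 for Lum on the log2 scale, in a fit with line and replicate as terms. None of the 9 passed after adjustment over all genes in edgeR (adjusted p from 0.113 to 0.275). The same fit called 0.0231% of all genes. Of the 9 members 6 were lower in replicate 2 in all 4 lines, compared with 15.7% of all genes tested. Those were Dcn, Aspn, Lum, Fmod, Omd and Ogn. Dcn in replicate 1 was 2.45 and 1.5 times that in replicate 2 in the Fib-Ctrl lines and 4.12 and 1.59 times in the Fib-dZeb1 lines. Fib-dZeb1 line 1 had the widest ratios of the 4 lines for every tested member, up to 20.5-fold for Prelp. The labels give the replicate numbers and no reason for a difference, and whether cell density, passage or preparation differed was not tested. This comparison was made after the values had been seen.

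**Figure D4:**
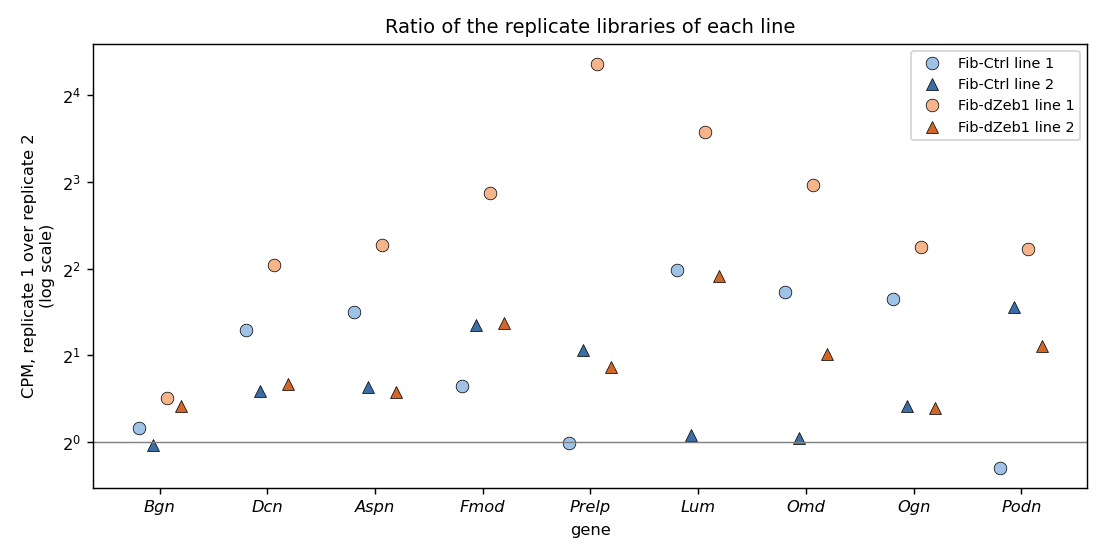
CPM of each member in replicate 1 divided by that in replicate 2, for each of the 4 lines (log axis with base 2, grey line at a ratio of 1). Most points lie above 1, the points of Fib-dZeb1 line 1 are the highest for each gene, and the ratios of Bgn lie between 0.974 and 1.42.

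Genotype contrasts were also taken among the libraries of each replicate number, which leaves 2 libraries of each genotype, and this too was added after the values had been seen. Prelp differed by -6.53 (edgeR adjusted p = 0.0574) among replicate 1 libraries and by -7.71 (edgeR adjusted p = 0.0326) among replicate 2 libraries. Fmod differed by -3.93 (edgeR adjusted p = 0.126) and -5.29 (0.066), Podn by -2.33 (0.44) and -4.26 (0.165), and Bgn by -1.01 (0.358) and -1.42 (0.16). The direction of these 4 was the same in each set, and Prelp in replicate 2 libraries was the single call among the members. That fit called 0.054% of all genes lower among replicate 1 libraries and 0.386% among replicate 2 libraries.

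For each member that fell, the 2 genes with the most similar profile over the 8 libraries were found by the root mean square distance between centred log2 CPM profiles. Prelp was closest to Mfap5 (distance 1.05) and Smoc1 (1.13), both genes of matrix proteins, where the median distance to all genes was 3.84. Fmod was closest to Ptx3 (0.555), which encodes a secreted pentraxin, and Igf1 (0.651), which encodes a growth factor, with a median of 2.46. Bgn was closest to Tlr6 (0.125), a Toll-like receptor gene, and Abhd14a (0.191), with a median of 0.839. These are descriptions over 8 libraries that share the genotype difference.

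Within 200 kb of the start sites 31 other genes were annotated, 17 of which were tested. Of these 2 rose and 1 fell, where 16.2% of all genes passed in either direction. In addition to Adora1, Dusp9, a phosphatase gene near Bgn, rose by 1.26 on the log2 scale (SE 0.33, edgeR adjusted p = 0.0355), and Slc6a8, the creatine transporter gene near Bgn, fell by 0.46 (SE 0.12, edgeR adjusted p = 0.0313).

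Other genes of the same biology were grouped by role. Of the 9 remaining members of the leucine-rich proteoglycan superfamily 5 were tested and none passed in edgeR, none at an unadjusted p under 0.05 and none in DESeq2. The most abundant were Tsku, which encodes tsukushi, with 20.9 ± 3.92 CPM in Fib-Ctrl against 18.2 ± 7.38 CPM in Fib-dZeb1 (SD, n = 4 each), and Podnl1, the podocan-like gene, at 8.6 ± 1.35 and 6.58 ± 2.34 CPM.

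Enzymes that build the glycosaminoglycan chains were taken in 3 groups. Of 6 enzymes that make the linker tetrasaccharide none passed in edgeR, while 1 was lower at an unadjusted p under 0.05 and 1 was lower in DESeq2. The most abundant of them were Fam20b, the xylose kinase, with a log2 fold change of -0.22 (SE 0.14), and B3gat3, a glucuronyltransferase, with -0.15 (SE 0.12). Of 14 tested chondroitin and dermatan sulfate enzymes 4 fell and none rose, where edgeR called 8.65% of all genes lower and 7.54% higher. Dse, the epimerase that turns chondroitin into dermatan sulfate, fell from 169 ± 4.39 to 92.4 ± 10.3 CPM (SD, n = 4 each), a log2 difference of -0.87 (SE 0.10, edgeR adjusted p = 0.00184). Chpf2, a chondroitin polymerizing factor, fell from 125 ± 22.5 to 78.6 ± 8.27 CPM, a log2 difference of -0.67 (SE 0.14, edgeR adjusted p = 0.0183). Of 8 tested enzymes of keratan sulfate and tyrosine sulfation, which modify fibromodulin, lumican and osteomodulin, none passed in edgeR or DESeq2 and 1 was lower at an unadjusted p under 0.05. The most abundant of these, Tpst2 and St3gal2, had log2 fold changes of -0.36 (SE 0.27) and -0.20 (SE 0.09).

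Collagens are the main partners of these proteoglycans in the matrix. Of 15 tested fibrillar and fibril-associated collagen genes 6 fell and none rose in edgeR, against 8.65% lower and 7.54% higher over all genes. Of these collagen genes 1 rose at an unadjusted p under 0.05 and 1 rose in DESeq2. Their median log2 fold change was -1.13, and Col5a1, which regulates fibril initiation, fell from 4095 ± 1273 to 954 ± 265 CPM (SD, n = 4 each), a log2 difference of -2.10 (SE 0.29, edgeR adjusted p = 0.0044). Col1a2 fell by 1.76 on the log2 scale (SE 0.28, edgeR adjusted p = 0.00633). Of 16 tested core proteins of other proteoglycans 5 fell and none rose in edgeR, while 2 rose at an unadjusted p under 0.05 and 2 in DESeq2. Sdc1, which encodes syndecan-1, fell by 1.19 (SE 0.19, edgeR adjusted p = 0.0067) and Hspg2, which encodes perlecan, by 0.77 (SE 0.15, edgeR adjusted p = 0.0114).

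Growth factors and receptors that small leucine-rich proteoglycans bind were taken as a further group. Of 17 tested genes 2 rose and 1 fell, a share near the 16.2% of all genes that passed. Met, the hepatocyte growth factor receptor and a decorin receptor, rose from 37.0 ± 10.3 to 172 ± 37.9 CPM (SD, n = 4 each), a log2 difference of 2.21 (SE 0.25, edgeR adjusted p = 0.0018). Bmp4, a ligand that biglycan binds, rose from 0.545 ± 0.486 to 65.7 ± 58.2 CPM, a log2 difference of 6.93 (SE 0.86, edgeR adjusted p = 0.0028). Lrp1, an endocytic receptor for decorin, fell by 1.25 on the log2 scale (SE 0.13, edgeR adjusted p = 0.00134). Of 11 tested proteases and procollagen processing factors 1 rose and 2 fell. Pcolce2, a procollagen C-proteinase enhancer, rose by 4.09 (SE 0.62, edgeR adjusted p = 0.0056), and Adamts5, an aggrecanase, fell by 2.18 (SE 0.42, edgeR adjusted p = 0.0117). Pcolce, the other enhancer gene, fell by 0.59 (SE 0.15, edgeR adjusted p = 0.0348).

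**Figure D5:**
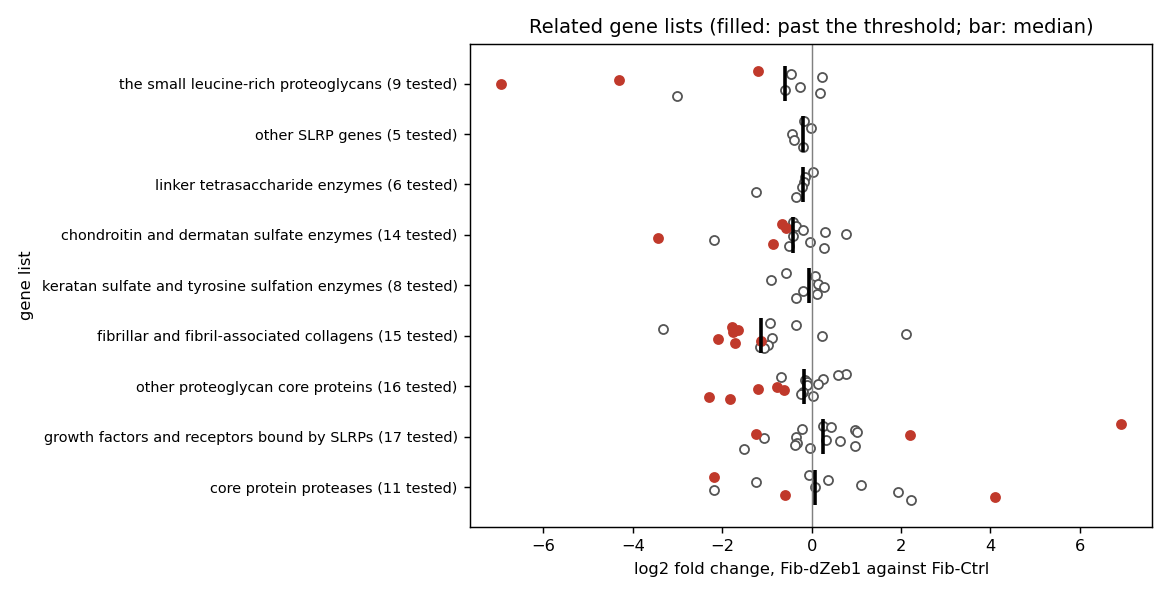
Log2 fold changes of Fib-dZeb1 against Fib-Ctrl for the tested genes of the family and of 8 related lists, each point 1 gene, with filled red points past an adjusted p of 0.05 and black bars at the list medians. The 2 points furthest left are Prelp at -6.94 and Fmod at -4.30, and the median of the collagen list is -1.13.

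Markers of other cells that colon cultures could hold were listed as well, to be read beside the 8.65% of all genes called lower and the 7.54% called higher. Summed TPM of 10 epithelial markers was 2.43 to 6.61 in Fib-Ctrl libraries against 25.8 to 191 in Fib-dZeb1 libraries. Of 3 tested markers 2 rose, Epcam from 0.0403 ± 0.0271 to 3.63 ± 1.27 CPM and Krt18 from 0.129 ± 0.19 to 42.6 ± 54.5 CPM (SD, n = 4 each). Krt18 had the highest mean TPM of the list over all libraries, at 32.4, followed by Krt19 at 8.16. In Fib-dZeb1 Krt8 averaged 1.05 CPM, Cdh1 0.238 CPM, Krt20 0.164 CPM and Vil1 0.0646 CPM. Cldn7 was lower there (0.0211 against 0.0344 CPM), as was Muc2 (0.0516 against 0.099 CPM), and Cldn3 had 0 reads in all libraries. Summed TPM of 7 smooth muscle and pericyte markers was 1900 to 4027 in Fib-Ctrl libraries against 490 to 722 in Fib-dZeb1 libraries. Actg2 and Cnn1 had the highest mean TPM of this list over all libraries, at 1354 and 292. Of the 5 tested 2 fell, Actg2 by 3.08 (SE 0.43, edgeR adjusted p = 0.0044) and Cnn1 by 1.25 (SE 0.19, edgeR adjusted p = 0.00611) on the log2 scale. The rest did not pass, with Mcam higher at 1.13 (SE 0.55), Myh11 at -0.44 (SE 0.57) and Kcnj8 at -0.97 (SE 0.66). Des and Rgs5 had 31 and 53 reads over all libraries. Of 10 general fibroblast markers 5 fell and none rose in edgeR, 0 rose at an unadjusted p under 0.05 and 0 in DESeq2, and S100a4 fell by 1.49 (SE 0.22, edgeR adjusted p = 0.00515). Immune markers summed to 1.72 to 3.09 TPM, endothelial markers to 0.42 to 1.39 TPM and glial and neuronal markers to 0.193 to 2.08 TPM over all libraries. Mesothelial markers summed to 1.76 to 6.03 TPM in Fib-Ctrl and 3.96 to 30.0 TPM in Fib-dZeb1, and Msln rose by 6.93 on the log2 scale (SE 1.03, edgeR adjusted p = 0.00552). Wt1 was lower in Fib-dZeb1, at 0.0477 ± 0.0955 against 0.392 ± 0.391 CPM. Upk3b, Lrrn4 and Upk1b had 21, 6 and 28 reads over all libraries. Krt19, with the highest mean TPM of this list at 8.16, was counted in the epithelial list too. Tendon and cartilage markers, from tissues rich in Fmod and Prelp, summed to 7.81 to 28.0 TPM in Fib-Ctrl and 13.6 to 18.9 TPM in Fib-dZeb1, with none of 4 passing in edgeR, 1 higher at an unadjusted p under 0.05 and 1 higher in DESeq2. The part of these markers in the levels of the proteoglycans was not tested.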

How the data were processed

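Polyadenylated RNA of 8 fibroblast cultures was sequenced. According to the labels and methods, the authors ran STAR and Salmon against GRCm38 within the nf-core RNA-seq pipeline 3.11.0. The sources used here do not give versions of STAR and Salmon, the annotation release or the strand setting. The deposited files hold estimated counts of reads for each of 109617 transcripts, with no normalization, and the deposited files also hold TPM, which are scaled for transcript length and library size by the authors. A table of the authors' own comparison by DESeq2, with fold changes and p-values, was not used.

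Estimated counts and TPM were summed to genes with GENCODE M21, which matched 98.72% of transcripts. The others, with 0.262% to 0.303% of reads per library, were dropped. Summed counts were rounded to whole numbers. Group membership came from the sample labels, and 4 libraries were compared with 4. The main test was edgeR 4.0.16 (R 4.3.3), a quasi-likelihood F test on genotype alone after filterByExpr, with TMM scaling and Benjamini-Hochberg adjustment over 12963 genes at 0.05. The SE of a log2 fold change was its size divided by the square root of F. CPM are TMM-scaled. The biological coefficient of variation was 32.1%. Further edgeR fits gave each line its own mean, or added the replicate number.

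The members, lists, and tests were chosen with earlier results of these data known. Named were all members, up to 2 rising and 2 falling genes with the smallest adjusted p of most related lists or else the 2 most abundant, neighbours within 200 kb that passed, and the 2 genes most similar to each member that passed. Of the lists of immune, endothelial and glial markers only summed levels are given. All members of the epithelial, smooth muscle and mesothelial lists were named, to show those that went the other way. Same-numbered libraries of both genotypes deviated together with correlations of 0.20, -0.04, -0.04 and 0.07 and were not taken as pairs. Alternatives were DESeq2 1.42.0, its size factors, no TMM, no filter, lines as samples, limma 3.58.1 (voom, and log2(TPM + 0.5)), replicate blocks, and leaving out each library and each line. Promoter sequences were RefSeq windows of GRCm38.p6. Protein sequences were not analysed here. The floor given for Kera covers counting error only.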

Additional observations from a re-analysis of the deposited data

Results flagged for a closer look

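For Bgn the genotype contrast between the lines numbered 2 differed from that between the lines numbered 1 by -1.18 on the log2 scale (SE 0.29, edgeR adjusted p = 0.0354). It was the 1 member of 9 for which this passed, and 15.3% of all genes tested passed too, so the count is not particular to the family. The numbers match lines by label alone, and the Fib-dZeb1 lines differed by -1.04 (adjusted p = 0.0301) where the Fib-Ctrl lines differed by 0.14 (0.684).

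In 4 of 18 groups of 4 libraries, 1 library stood apart from the other 3 in the CPM of a member, by a gap to its nearest neighbour that was above the 95% critical value of Dixon's test. Chance gives such a gap in about 1 in 20 groups, and the members are not independent of each other. Replicate 1 of Fib-Ctrl line 1 was the high library in 3 of them, with Lum at 34.8 CPM, Omd at 2.57 CPM and Ogn at 247 CPM. Replicate 1 of Fib-dZeb1 line 1 was the high library for Podn, at 6.06 CPM.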

How the results depend on the processing

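The results were recomputed in 21 other analyses, and 2 more were added after seeing the data. The count of members called lower was 3 in the main analysis and 2 to 4 in most alternatives. It was 1 with lines as samples, 1 in limma-voom with a correlation within lines, 1 without both libraries of Fib-dZeb1 line 2, 0 among libraries of replicate number 1 and 1 among those of replicate number 2. No alternative called a member higher. Leaving out 1 library at a time gave 2 to 4 members lower. Prelp passed in all 21 analyses other than the added ones, Fmod in 18, Bgn in 11 and Podn in 8, and the log2 fold changes of these 4 and of Dcn stayed below zero in all of these, Dcn at -0.05 without replicate 1 of Fib-Ctrl line 1 and Podn between -4.12 and -1.43. Without both libraries of Fib-dZeb1 line 2 Fmod and Bgn were lost (adjusted p = 0.0816 and 0.0626), and Podn passed without replicate 1 of Fib-dZeb1 line 1 (0.0228) or replicate 2 of Fib-Ctrl line 2 (0.0312).

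Signs turned for 4 members that passed nowhere. Aspn was at -0.43 without both libraries of Fib-Ctrl line 2 and ranged from -0.11 to 1.08 when 1 library was left out. Ogn was at -0.35 without Fib-Ctrl line 2 and -0.25 without Fib-dZeb1 line 1, with -0.46 to 0.92 over single libraries. Lum was at 0.49 without Fib-Ctrl line 1 and 0.10 without Fib-dZeb1 line 1, with -0.87 to 0.51. Omd was at 0.27 without Fib-Ctrl line 1, with -1.60 to 0.17. The cause was not tested.

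The replicate number as a replicate block called 3 members lower and the line and replicate numbers together (4 pairs) called 4, which adds Podn (adjusted p = 0.0267). As the numbers were not pairs, these fits are given for completeness, and they called 1046 and 891 of all genes lower. Over all genes the main counts of 1121 lower and 978 higher became 719 and 2272 without TMM, 726 and 1985 in limma on TPM, 1758 and 1573 in DESeq2, 146 and 114 in limma-voom, and 6 and 9 with lines as samples. Single libraries left out gave 508 to 1141 lower and 476 to 1011 higher, the lowest without replicate 2 of Fib-dZeb1 line 2, and without both libraries of Fib-dZeb1 line 2 the counts were 433 and 384. Of the related lists, every one with calls had 0 with lines as samples, and in limma-voom the collagens went from 6 lower to 0, the other proteoglycans from 5 to 1 and the chondroitin and dermatan sulfate enzymes from 4 to 1. Depth limited Kera, with 4 reads, and Omd, with 162.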
